A study of Homo sapiens with 12 samples.

Results

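A set of 10 genes of the integrated stress response and of mitochondrial one-carbon metabolism was followed across 4 treatments of induced neutrophils, made from the human promyelocytic leukaemia line HL-60. They were picked by symbol: the transcription factor genes ATF4 and DDIT3, the regulators TRIB3 and SESN2, asparagine synthetase (ASNS), the serine synthesis enzymes PHGDH, PSAT1 and PSPH, and the mitochondrial folate enzymes SHMT2 and MTHFD2. Each of the 10 symbols stood in 1 row of a table of 10465 rows. Cells were exposed for 24 hours to AGEs (advanced glycation end products, proteins modified by reducing sugars) at 0.05 ug/mL, to AGEs at 0.05 ug/mL with D-glucose at 30 mmol/L, to D-glucose alone at 30 mmol/L, or to BSA (bovine serum albumin) at 0.05 ug/mL as the labelled control. Each treatment had 3 RNA sequencing libraries, 12 in all. All groups came from 1 cell line cultured in RPMI medium with serum, and the groups with glucose are not labelled as holding BSA. Separate cultures are not stated for the libraries of a treatment, and the p-values therefore reflect library-to-library spread, which may be technical.

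In the integrated stress response, several kinases phosphorylate the initiation factor eIF2 when amino acids run short or when the endoplasmic reticulum, haem supply or mitochondria are disturbed. General translation then drops while translation of the ATF4 mRNA increases, and ATF4 protein switches on genes for amino acid uptake and synthesis, among them ASNS and the enzymes of serine synthesis. Serine made from the glycolytic intermediate 3-phosphoglycerate gives up a carbon unit to folate, in mitochondria through SHMT2, with MTHFD2 in the same folate pathway. Because ATF4 is controlled largely at translation, its mRNA level does not report the amount of its protein, which was not measured.

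The best known ATF4 element lies in the ASNS promoter, and the 120 bases before the gene's start are shown for it and for PSAT1, the member whose log2 values had the highest Pearson correlation with those of ASNS over the 12 libraries. Both sequences are from RefSeq (GRCh38.p14), 5′ to 3′ on the gene's own strand, ASNS from chr7:97872409-97872528 on the minus strand and PSAT1 from chr9:78297005-78297124 on the plus strand. Capitals mark TGATGNAA, the core of the C/EBP-ATF response element, in ASNS and CCAAT boxes in PSAT1.
ASNS: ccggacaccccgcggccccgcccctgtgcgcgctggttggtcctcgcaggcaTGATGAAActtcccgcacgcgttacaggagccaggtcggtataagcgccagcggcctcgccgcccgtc
PSAT1: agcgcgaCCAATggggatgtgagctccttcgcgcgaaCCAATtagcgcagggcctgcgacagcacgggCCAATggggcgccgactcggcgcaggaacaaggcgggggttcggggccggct
The ASNS match began 68 bases before the start. Windows from 250 bases before to 50 bases after a start were found for 8 of the 10 genes (all but PSPH and SHMT2), 13 windows in all. On either strand TGATGNAA was found in the windows of 1 of these 8 genes, ASNS, and in 3.62% of all 35116 windows. CCAAT was found for 5 of the 8 genes (DDIT3, MTHFD2, PHGDH, PSAT1 and SESN2), with 3 copies in the PSAT1 bases shown, and in 34.6% of all windows. The member counts are per gene, where a match in any window of the gene counts, while the percentages are per window. A gene with several windows has more room for a match, so these counts and percentages are not in like units. These are matches of letters in this window only.

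All 10 genes were expressed, over a wide range of levels in FPKM, a unit scaled to gene length and library total in which genes can be set beside each other. ATF4 averaged 149 FPKM over the 12 libraries and ranked 164 of the 10465 rows. MTHFD2 at 31.3, SHMT2 at 22.4, PSAT1 at 14.6 and DDIT3 at 11.3 FPKM followed, then TRIB3 at 6.91, PHGDH at 5.92, ASNS at 4.34, SESN2 at 4.26 and PSPH at 2.58 FPKM. The ratio of ATF4 to PSPH within a library had a median of 60.5. The highest library exceeded the lowest by 1.11-fold for ATF4, by 1.84-fold for DDIT3, and by between 1.36-fold and 1.64-fold for the other 8. All 10 passed the filter of at least 1 FPKM in at least 3 libraries.

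Libraries were checked before the comparisons. FPKM sums ran from 220444 to 233854, and read depth is unknown, since FPKM keeps no counts. Of 15 neutrophil markers 11 were measured, and their summed level was 1340 to 1380 FPKM with AGEs, 1370 to 1390 with AGEs and glucose, 1230 to 1360 with glucose and 1330 to 1390 with BSA. FCGR3B, CXCR1, MMP9 and LTF were not analysed here. Of 8 eosinophil and basophil markers 6 were measured and summed, mostly through CLC, to 2420 to 2580 FPKM with AGEs, 2680 to 2770 with AGEs and glucose, 2380 to 2610 with glucose and 2180 to 2450 with BSA. The library AGEs 1 had a limma quality weight of 0.18 and glucose 3 one of 0.42, against 0.8 to 1.8 for the other 10.

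**Figure D1:**
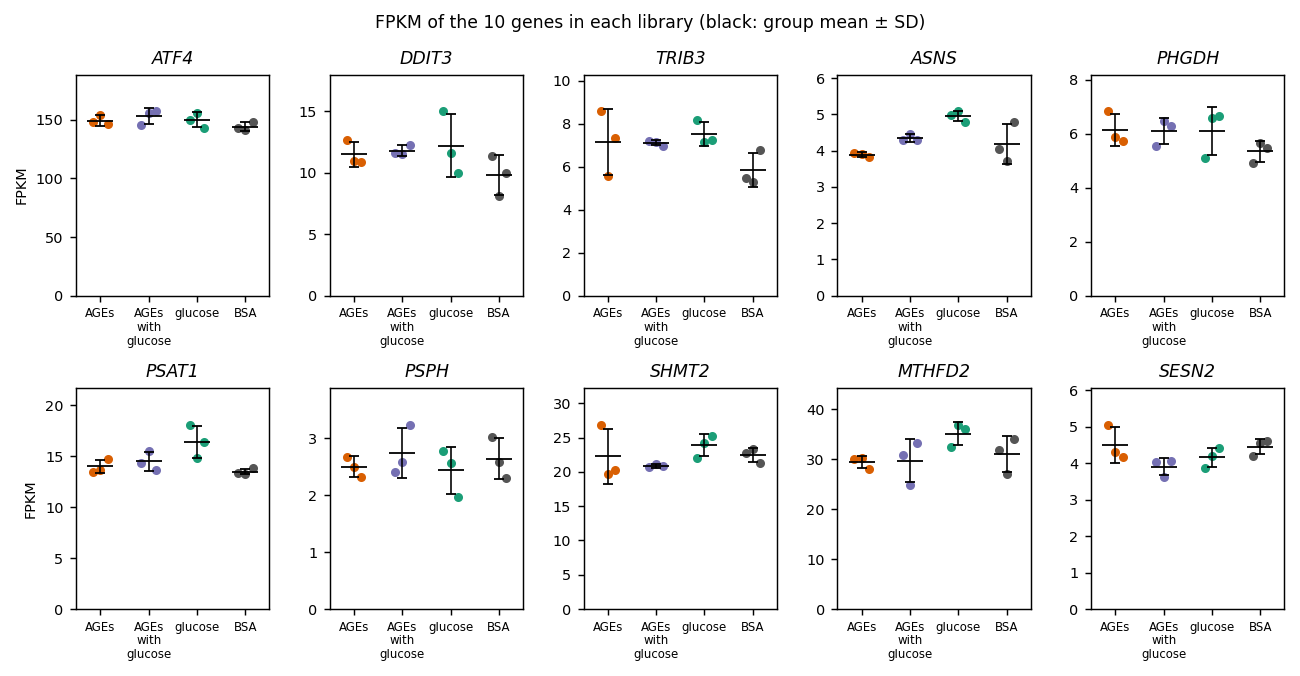
FPKM (linear axis from 0) of each of the 10 genes in each library, with 3 points per treatment and the group mean ± SD in black. ASNS, PSAT1 and TRIB3 have all 3 glucose libraries above all 3 BSA libraries, and ATF4 lies between 141 and 157 FPKM throughout.

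ATF4 encodes the transcription factor at the centre of the response. Its level was 148, 154 and 146 FPKM with AGEs, 145, 156 and 157 with AGEs and glucose, 150, 156 and 143 with glucose, and 143, 141 and 148 with BSA. The 4 groups overlapped and their means differed little, at 149 ± 4.52, 153 ± 6.54, 150 ± 6.7 and 144 ± 3.81 FPKM in that order (SD, n = 3). The 95% interval of its fold was 0.954 to 1.13 for AGEs, 0.975 to 1.15 for AGEs with glucose and 0.956 to 1.13 for glucose, each against BSA and not adjusted for the number of genes.

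DDIT3 encodes CHOP, a C/EBP family factor induced through ATF4 that acts in prolonged stress. It stood at 12.7, 11 and 10.9 FPKM with AGEs, at 11.6, 11.5 and 12.3 with AGEs and glucose, at 15, 11.6 and 9.98 with glucose and at 11.4, 8.14 and 10 with BSA. The libraries with AGEs and glucose all lay above the BSA libraries, while the AGEs and the glucose libraries overlapped with them. The spread within glucose (12.2 ± 2.57 FPKM) and BSA (9.84 ± 1.62, SD, n = 3) was the widest, with library glucose 1 highest and BSA 2 lowest of all 12.

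TRIB3 encodes a pseudokinase that is induced by ATF4 and DDIT3 and feeds back on ATF4. Its values were 8.58, 5.56 and 7.35 FPKM with AGEs, 7.22, 7.14 and 6.99 with AGEs and glucose, 8.16, 7.17 and 7.27 with glucose and 5.49, 5.28 and 6.76 with BSA. All libraries with glucose, alone or with AGEs, lay above all BSA libraries, and the AGEs group spanned both. AGEs 1 was the highest of the 12 and AGEs 2 was within the BSA range.

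SESN2 encodes sestrin 2, a leucine-binding inhibitor of mTORC1 that ATF4 also induces. It was measured at 5.06, 4.3 and 4.16 FPKM with AGEs, 4.03, 3.63 and 4.05 with AGEs and glucose, 3.88, 4.19 and 4.41 with glucose and 4.21, 4.56 and 4.6 with BSA. The libraries with AGEs and glucose lay below every BSA library, and the other groups overlapped. AGEs 1 was again the highest library.

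ASNS, which makes asparagine from aspartate and glutamine, carried the ATF4 element shown above. It stood at 3.94, 3.9 and 3.82 FPKM with AGEs, at 4.28, 4.47 and 4.28 with AGEs and glucose, at 4.97, 5.08 and 4.8 with glucose and at 4.03, 3.71 and 4.79 with BSA. The AGEs libraries all lay below the glucose libraries, as for 5.49% of all genes. The combined values lay between those groups, and the combined group was not tested against either of them. The BSA libraries spread across the AGEs and the combined values, with BSA 3 just below the lowest glucose library.

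The serine synthesis enzymes differed in level and in pattern. PHGDH, the first enzyme of the pathway, was at 6.82, 5.87 and 5.71 FPKM with AGEs, 5.54, 6.47 and 6.29 with AGEs and glucose, 5.08, 6.58 and 6.64 with glucose and 4.92, 5.65 and 5.45 with BSA. Its AGEs libraries all lay above the BSA libraries, and the 2 groups with glucose overlapped with BSA. PSAT1, the aminotransferase of the second step, was at 13.5, 13.7 and 14.7 FPKM with AGEs, 14.3, 15.5 and 13.7 with AGEs and glucose, 18.1, 14.8 and 16.4 with glucose and 13.4, 13.3 and 13.8 with BSA. Its 3 BSA libraries lay close together, and all glucose libraries lay above them. PSPH, the phosphatase of the last step, was at 2.68, 2.49 and 2.32 FPKM with AGEs, 2.4, 2.58 and 3.24 with AGEs and glucose, 2.77, 2.57 and 1.97 with glucose and 3.03, 2.58 and 2.31 with BSA, with all groups overlapping. Within a library PSAT1 exceeded PHGDH by a median of 2.43-fold (range 1.98 to 3.55) and PSPH by 5.86-fold (range 4.24 to 8.3).

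SHMT2 and MTHFD2 are enzymes of the mitochondrial folate pathway, in which SHMT2 moves the serine carbon into folate. SHMT2 stood at 26.9, 19.7 and 20.3 FPKM with AGEs, 20.7, 21.2 and 20.8 with AGEs and glucose, 22.1, 24.3 and 25.3 with glucose and 22.8, 23.3 and 21.3 with BSA. The combined libraries were nearly equal and lay below every BSA library, while AGEs 1 stood above all others. MTHFD2 stood at 30, 30.3 and 28.1 FPKM with AGEs, 30.8, 24.9 and 33.3 with AGEs and glucose, 32.5, 36.9 and 36.1 with glucose and 31.9, 27 and 34.1 with BSA. The AGEs libraries lay below all glucose libraries, and the BSA and combined groups each spread over both. Both exceeded their cytosolic relatives in all 12 libraries: the ratio of SHMT2 to cytosolic SHMT1 had a median of 9.74 (range 8.11 to 13.1), and that of MTHFD2 to cytosolic MTHFD1 a median of 5.15 (range 4.17 to 6.28). The group means of the SHMT2 to SHMT1 ratio were 10.3 ± 2.54 with AGEs, 9.04 ± 0.625 with AGEs and glucose, 10.6 ± 1.12 with glucose and 9.85 ± 0.783 with BSA (SD, n = 3).

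**Figure D2:**
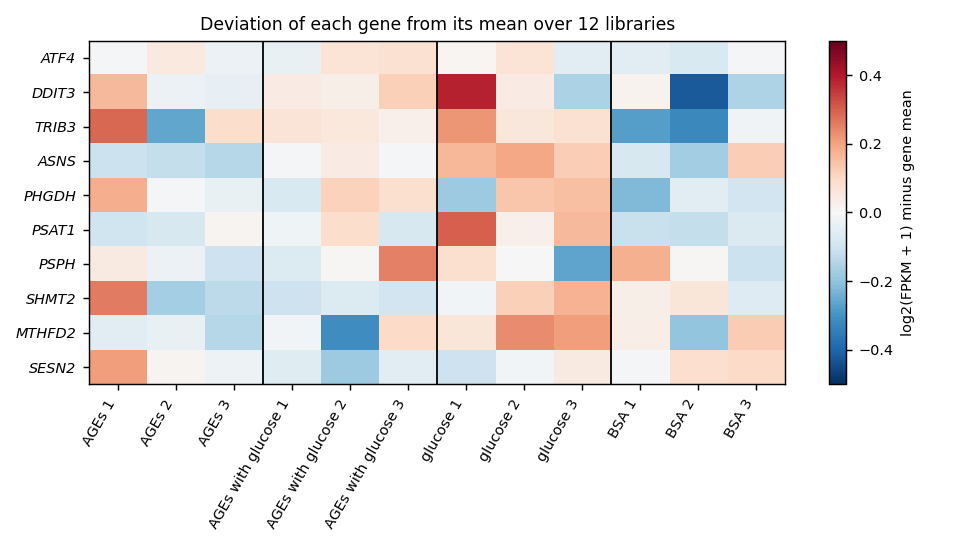
Deviation of log2(FPKM + 1) from each gene's mean over the 12 libraries (colour), with genes in rows and libraries in columns, lines separating the treatments. The glucose columns hold more values above the mean (7, 9 and 7 of 10 genes) than the BSA columns (4, 3 and 3 of 10 genes), and AGEs 1 differs from the other AGEs libraries in several rows. The AGEs columns hold 6, 2 and 2 such values, and the columns of AGEs with glucose 2, 7 and 6.

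The first question was what high glucose did to these genes relative to BSA. No member passed the test, with the smallest limma adjusted p at 0.309, against 0.103% of all 9751 genes tested that passed. Of the members 8 of 10 were above 0 with a median log2 fold change of 0.17, beside a median of -0.00 for all genes tested. PSAT1 averaged 16.4 ± 1.61 FPKM with glucose and 13.5 ± 0.251 with BSA (SD, n = 3; log2 fold change 0.26 ± 0.08 SE, limma adjusted p = 0.309). ASNS averaged 4.95 ± 0.143 FPKM with glucose and 4.18 ± 0.553 with BSA (log2 fold change 0.21 ± 0.08 SE, limma adjusted p = 0.416). TRIB3 averaged 7.53 ± 0.542 FPKM with glucose and 5.84 ± 0.799 with BSA (log2 fold change 0.32 ± 0.13 SE, limma adjusted p = 0.452). MTHFD2 averaged 35.1 ± 2.33 FPKM with glucose and 31 ± 3.63 with BSA, a log2 fold change of 0.18 ± 0.11 SE (limma adjusted p = 0.657). PSPH and SESN2 were the 2 members below 0, at log2 fold changes of -0.09 and -0.08. These 3 of 10 members, PSAT1, ASNS and TRIB3, had an unadjusted limma p under 0.05, as did 10% of all genes tested, and the same 3 had every glucose library above every BSA library, as did 7.92% of all genes. With 1 library left out, between 1 and 4 members had such a p, the 1 being without BSA 2.

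The fold changes are on the log2(FPKM + 1) scale, which understates the change of genes at a few FPKM such as ASNS and PSPH. With 1 library left out, the log2 fold change of DDIT3 for glucose against BSA ran from 0.13 without glucose 1 to 0.40 without glucose 3 (0.16 without BSA 2), and that of PHGDH from 0.10 without glucose 3 to 0.26 without glucose 1. That of MTHFD2 was 0.09 without BSA 2. In the same libraries promyelocyte markers (4 of 5 measured, mostly MPO) summed to 92.5 to 94.3 FPKM with glucose and 105 to 117 with BSA, and monocyte and macrophage markers (2 of 7 measured) to 8.32 to 9.53 with glucose and 12.8 to 13.6 with BSA. Their part in these values was not tested, and fewer cells of a type cannot be told apart from less RNA per cell in such samples.

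**Figure D3:**
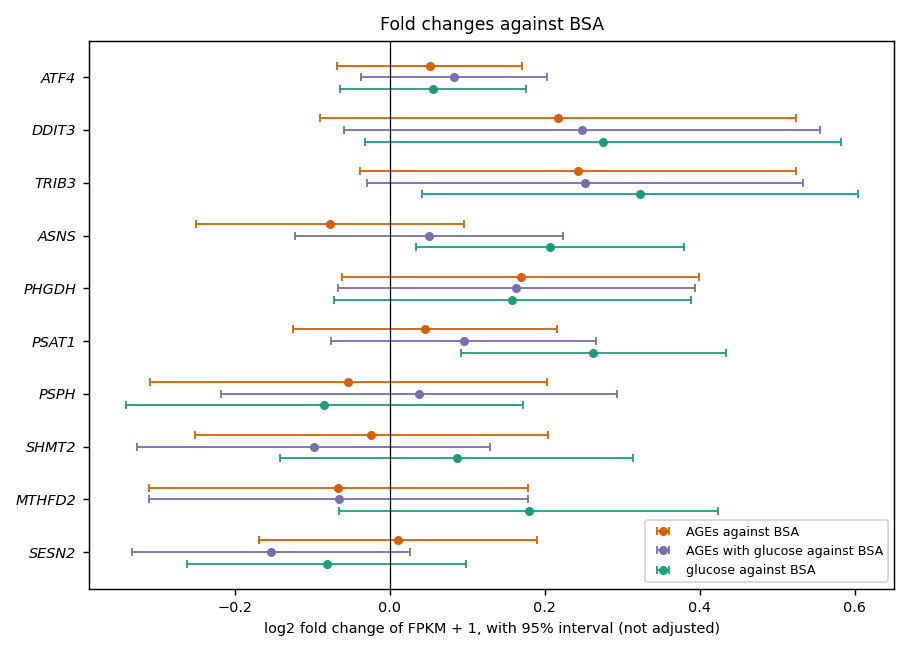
Log2 fold change of FPKM + 1 (horizontal axis) with its 95% interval, not adjusted for the number of genes, for each of the 10 genes in the 3 comparisons against BSA, which share the BSA libraries. The intervals of PSAT1, ASNS and TRIB3 for glucose lie above 0, and those of all other points cross 0.

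The second comparison asked what AGEs did relative to BSA. Again 0 members passed, while 0.0308% of all genes did. Of the members 6 were above 0 and the other 4 below, the median log2 fold change being 0.03 (all genes: -0.00) and -0.00 without AGEs 1, and 0 of 10 had an unadjusted limma p under 0.05 against 4.74% of all genes. TRIB3 had the smallest p, at 7.16 ± 1.52 FPKM with AGEs and 5.84 ± 0.799 with BSA (SD, n = 3; log2 fold change 0.24 ± 0.13 SE, limma adjusted p = 0.977). PHGDH averaged 6.13 ± 0.597 FPKM with AGEs and 5.34 ± 0.375 with BSA (log2 fold change 0.17 ± 0.10 SE), and was the 1 member with every AGEs library above every BSA library, against 4.82% of all genes. The log2 fold change of TRIB3 was 0.12 without AGEs 1 and 0.39 without AGEs 2 (limma adjusted p = 0.64), and that of PHGDH 0.10 without AGEs 1. SHMT2 stood at 22.3 ± 3.99 FPKM with AGEs and 22.5 ± 1.02 with BSA, a log2 fold change of -0.02, which was -0.16 without AGEs 1 (limma adjusted p = 0.669) and 0.05 without AGEs 2.

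With AGEs and glucose together, 0 members passed against BSA, and 0.0103% of all genes did. Values were above 0 in 7 members and below in the other 3, the median log2 fold change being 0.07 (all genes: -0.01), with 0 of 10 members at an unadjusted limma p under 0.05 (all genes: 5.48%). TRIB3 averaged 7.12 ± 0.115 FPKM with AGEs and glucose and 5.84 ± 0.799 with BSA (SD, n = 3; log2 fold change 0.25 ± 0.13 SE, limma adjusted p = 0.892). DDIT3 averaged 11.8 ± 0.433 FPKM with AGEs and glucose and 9.84 ± 1.62 with BSA (log2 fold change 0.25 ± 0.14 SE, limma adjusted p = 0.892). SESN2 averaged 3.91 ± 0.236 FPKM with AGEs and glucose and 4.46 ± 0.211 with BSA (log2 fold change -0.15 ± 0.08 SE, limma adjusted p = 0.892). SHMT2 averaged 20.9 ± 0.303 FPKM with AGEs and glucose and 22.5 ± 1.02 with BSA (log2 fold change -0.10 ± 0.10 SE, limma adjusted p = 0.926). Every library with AGEs and glucose lay above every BSA library for DDIT3 and TRIB3, 2 of 10 members, against 8.51% of all genes, and below for SHMT2 and SESN2, again 2 of 10, against 9.14% of all genes. The nearest combined and BSA libraries were at 11.5 and 11.4 FPKM for DDIT3 and 6.99 and 6.76 for TRIB3. For SHMT2 they were at 21.2 and 21.3 FPKM, and for SESN2 at 4.05 and 4.21. Without BSA 2 the log2 fold change of DDIT3 was 0.13. Marker sums also separated these groups: promyelocyte markers summed to 127 to 130 FPKM with AGEs and glucose and 105 to 117 with BSA, monocyte and macrophage markers to 11 to 11.8 with AGEs and glucose and 12.8 to 13.6 with BSA, and eosinophil and basophil markers as given above. Their part in these values was not tested.

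The series sets AGEs beside glucose, and here the members with the clearest separation were ASNS, PSAT1 and MTHFD2. ASNS averaged 3.89 ± 0.0614 FPKM with AGEs and 4.95 ± 0.143 with glucose (SD, n = 3; log2 fold change -0.28 ± 0.08 SE, limma adjusted p = 0.312). PSAT1 averaged 14 ± 0.634 FPKM with AGEs and 16.4 ± 1.61 with glucose (log2 fold change -0.22 ± 0.08 SE, limma adjusted p = 0.44). MTHFD2 averaged 29.5 ± 1.19 FPKM with AGEs and 35.1 ± 2.33 with glucose (log2 fold change -0.25 ± 0.11 SE, limma adjusted p = 0.518). In all 3 every AGEs library lay below every glucose library, as for 5.49% of all genes, and the same 3 of 10 had an unadjusted limma p under 0.05 (all genes: 9.61%). For MTHFD2 this limma p was 0.0496, at the edge of the cut. With a pseudocount of 0.1 the count was 2, and with 1 library left out it was 2 or 3. No member passed over all genes, of which 0.041% did. ATF4 had a log2 fold change of -0.00 with a 95% interval of -0.12 to 0.12. Promyelocyte markers summed to 110 to 137 FPKM with AGEs and 92.5 to 94.3 with glucose, and monocyte and macrophage markers to 11.5 to 13.1 with AGEs and 8.32 to 9.53 with glucose, and their part in these values was not tested.

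Taking the 4 groups as a 2 by 2 layout, the glucose effect averaged over both AGEs states was above 0 in 9 of 10 members, SESN2 being the exception. Only the BSA group is labelled as holding BSA, so the contrasts of this layout may also hold a difference in BSA. The median log2 difference was 0.08 (all genes: 0.00), and 0 members passed, against 0.041% of all genes. ASNS had a log2 difference of 0.17 ± 0.06 SE (limma adjusted p = 0.457), PSAT1 0.16 ± 0.06 SE (0.467) and SESN2 -0.12 ± 0.06 SE (0.563), and ASNS and PSAT1 were the 2 of 10 members at an unadjusted limma p under 0.05 (all genes: 8.99%). PSPH and SHMT2 stood at 0.00 and 0.01, far within their SE of 0.08 and 0.07. The AGEs effect averaged over both glucose states was above 0 in 5 of 10 members, with MTHFD2 at -0.16 ± 0.08 SE (-0.10 without AGEs with glucose 2) and ASNS at -0.12 ± 0.06 SE (-0.07 without BSA 3; limma adjusted p = 0.844 for each with all libraries), and 0 passed (all genes: 0.0103%), with 0 at an unadjusted limma p under 0.05 (all genes: 5.84%).

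Whether glucose acted differently with and without AGEs was tested as an interaction. It was below 0 in 9 of 10 members, with a median of -0.16 (all genes: 0.00), where the value is the combined group minus AGEs, less glucose minus BSA. The subtracted part is the comparison given above, in which 8 of 10 members were above 0, so these signs are linked and not a separate result. That part may also hold a difference in BSA, which glucose alone is not labelled as holding. No member passed, with 0.995 as the smallest limma adjusted p, and 0 were at an unadjusted p under 0.05 (all genes: 4.89%), while 0.0103% of all genes passed. TRIB3 had an interaction of -0.31 ± 0.18 SE and PSAT1 of -0.21 ± 0.11 SE on the log2 scale. Without AGEs 1 the median over the members was -0.08, the interaction of TRIB3 -0.19, and that of SHMT2 -0.02 in place of -0.16.

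Correlations between members over the 12 libraries ran from -0.515 (PSAT1 with SESN2) to 0.666 (ASNS with PSAT1; Pearson, log2 values, a description of 45 pairs). The next highest were DDIT3 with TRIB3 at r = 0.646 (Spearman 0.524) and ASNS with MTHFD2 at r = 0.639. ATF4 had its highest with DDIT3, at r = 0.472. As the extremes of many pairs these were picked for their size, and whether unrelated genes would reach them was not tested. These values share the libraries, their scaling and the treatment groups. The mean deviation of the 10 members was highest in glucose 1 (0.09 log2), AGEs 1 (0.09) and glucose 2 (0.09) and lowest in BSA 2 (-0.12). The genes outside the lists used here whose log2 values were most like this mean over the 12 libraries were GPR75 (r = 0.897), AKR1A1 (0.873), XRCC6 (0.855), PTDSS1 (0.854) and HADHA (0.847). They too were picked for the size of r, and GPR75 ran from 0.707 to 1.22 FPKM, near the filter of 1 FPKM.

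The wider pathways were described by 8 further lists with 167 entries, of which 148 were in the table and 140 were tested. No gene of these lists passed over all genes tested in any of the 7 contrasts, and against BSA 12 of the 140 had an unadjusted limma p under 0.05 with glucose (all genes: 10%), 4 with AGEs (all genes: 4.74%) and 10 with AGEs and glucose (all genes: 5.48%). For glucose against BSA the folate and methionine cycle genes lay highest, with 16 of 21 above 0 and a median log2 fold change of 0.14 beside -0.00 for all genes. Their examples were AHCY, which clears S-adenosylhomocysteine, at 34.8 ± 1.21 FPKM with glucose and 30.2 ± 0.936 with BSA (limma adjusted p = 0.311), the purine synthesis enzyme ATIC at 21 ± 0.907 with glucose and 18 ± 0.761 with BSA (0.311), and the mitochondrial folate carrier SLC25A32 at 9.18 ± 0.595 with glucose and 7.57 ± 0.578 with BSA (0.394; SD, n = 3). With AGEs these genes averaged 33.9, 19.4 and 7.62 FPKM in that order, and with AGEs and glucose 33.1, 19.9 and 7.67 FPKM. Mitochondrial stress chaperones and proteases had 7 of 12 above 0 with a median of 0.11, among them the chaperonin HSPD1 at 105 ± 10.4 FPKM with glucose and 82.4 ± 2.92 with BSA (limma adjusted p = 0.311). Endoplasmic reticulum chaperones and unfolded protein response genes had 12 of 20 above 0 with a median of 0.07, and kinases and feedback genes of the integrated stress response 11 of 17 with a median of 0.05. Among these kinases and feedback genes EIF2B5, a subunit of the exchange factor for eIF2, stood at 11.1 ± 0.639 FPKM with glucose and 8.44 ± 0.601 with BSA (limma adjusted p = 0.375). EIF2B5 was also above its BSA mean with AGEs (10.5 ± 1.42 FPKM) and with AGEs and glucose (10.4 ± 1.83).

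**Figure D4:**
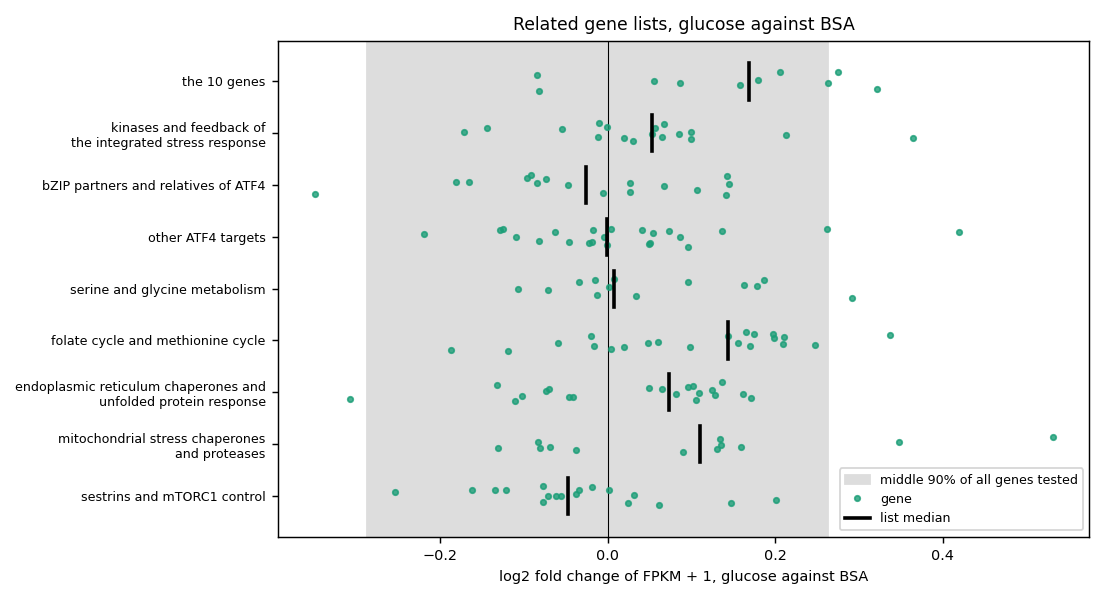
Log2 fold change of FPKM + 1 for glucose against BSA (horizontal axis) of every tested gene in the 10-gene set and in the 8 related lists, with list medians as black bars and the range from -0.288 to 0.263 that holds the middle 90% of all genes tested in grey. The median of the 10 genes lies at 0.17 and that of the other ATF4 targets at -0.00.

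Of the other ATF4 targets 11 of 23 were above 0 with glucose against BSA, with a median of -0.00; how they differ from the 10 members was not tested. EIF4EBP1, a translation repressor, had the smallest p among them, at 34.1 ± 1.92 FPKM with glucose and 28.2 ± 0.956 with BSA (SD, n = 3; limma adjusted p = 0.302). It averaged 31.4 ± 2.72 FPKM with AGEs and 33.1 ± 1.52 with AGEs and glucose. The classical target CHAC1, a glutathione-degrading enzyme, averaged 0.344 FPKM and the stress factor ATF3 0.562 FPKM over the 12 libraries, both below the filter, as was MTHFD2L, the paralog of MTHFD2, at 0.804 FPKM. Serine and glycine metabolism genes had 8 of 13 above 0 with a median of 0.01, with the aspartate aminotransferase GOT1 at 13.6 ± 0.749 FPKM with glucose and 10.9 ± 0.56 with BSA (limma adjusted p = 0.342). The bZIP partners and relatives of ATF4 had 7 of 16 above 0 with a median of -0.03, with JUN at 4.46 ± 0.313 FPKM with glucose and 5.98 ± 0.871 with BSA (limma adjusted p = 0.349). JUN averaged 5.09 ± 0.742 FPKM with AGEs and 4.58 ± 0.438 with AGEs and glucose. Sestrins and mTORC1 control genes had 6 of 18 above 0 with a median of -0.05.

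Against BSA, AGEs gave medians between -0.03 and 0.07 over the 8 lists, and AGEs with glucose medians between -0.06 and 0.02. With AGEs, VEGFA, an angiogenic factor among the ATF4 targets, averaged 2.39 ± 0.244 FPKM, against 3.32 ± 0.508 with BSA (SD, n = 3; limma adjusted p = 0.958). With AGEs and glucose, the glycine methyltransferase GNMT averaged 3.21 ± 0.424 FPKM, against 1.93 ± 0.276 with BSA (limma adjusted p = 0.646), and SESN1, a sestrin paralog, 2.58 ± 0.291 FPKM against 1.97 ± 0.199 with BSA (limma adjusted p = 0.699).

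The paralogs of the members showed how the small families were composed in these cells. TRIB1 stood far above TRIB3, with a ratio between 13.1 and 23 within a library, and averaged 121 ± 11 FPKM with AGEs, 113 ± 0.945 with AGEs and glucose, 108 ± 1.99 with glucose and 118 ± 4.12 with BSA. The ratio of TRIB1 to TRIB3 averaged 14.4 ± 1.12 with glucose and 20.4 ± 3.26 with BSA (SD, n = 3). TRIB2 was near TRIB3 in level, at 7.05 ± 0.464 FPKM with glucose and 7.69 ± 0.507 with BSA. SESN3 exceeded SESN2 by a median of 1.7-fold within a library, and SESN2 exceeded SESN1 by 2.08-fold. ATF5, a close relative of ATF4 that is also controlled at translation, was at 12.8 ± 0.458 FPKM with AGEs, 13.9 ± 0.669 with AGEs and glucose, 13.1 ± 1.07 with glucose and 12.1 ± 0.7 with BSA, so that ATF4 exceeded it by a median of 11.7-fold. MTHFD1L, the mitochondrial enzyme that releases formate, was at 4.65 ± 0.348 FPKM with glucose and 3.9 ± 0.628 with BSA (limma adjusted p = 0.545), and cytosolic MTHFD1 at 6.71 ± 0.255 with glucose and 5.89 ± 0.426 with BSA (limma adjusted p = 0.508). SHMT1 was at 2.26 ± 0.158 FPKM with glucose and 2.29 ± 0.171 with BSA.

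For 5 members the deposited values may share reads with near copies, and the sources used here do not say how such reads were assigned. GENCODE release 29 names 7 pseudogenes of MTHFD2, 4 each of ATF4, ASNS and PSAT1, and 1 of PSPH, none of which had a row in the table. In the same annotation the span of DDIT3 overlaps MARS and MBD6, that of SHMT2 overlaps NDUFA4L2 and that of MTHFD2 overlaps SLC4A5, all on the other strand, and without a stated strand setting such reads cannot be told apart. DDIT3 and ASNS also overlap further annotated genes on their own strand, whose reads a strand setting would not separate.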

How the data were processed

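The authors deposited FPKM values per gene, which are relative to transcript length and sequencing total, with a column for each library, per the file headers. Per the submitters' processing notes the tools included STAR 2.5.2b, HISAT2 2.0.5, cutadapt and StringTie with the build hg19, in no stated role or order; annotation, strand setting and filters were not stated. In every row the highest group mean was at least 0.5001 FPKM, so genes below that were not analysed here. Values were analysed as log2(FPKM + 1), keeping 9751 of 10465 rows with at least 1 FPKM in at least 3 libraries. All 12 libraries entered 1 limma 3.58.1 fit of group means under R 4.3.3 (statmod 1.5.0, intensity trend, robust moderation), with Benjamini-Hochberg adjustment over all genes within a contrast and a threshold of 0.05. The fit was run on simulated data with added changes larger than any member's in the main fit, so that run does not speak to changes of the members' size. The members and lists were chosen with earlier results of these data known. All members are named; of each list at most 3 genes with the smallest p against BSA, of which fewer are given, fixed paralogs, and the 5 genes most like the mean member profile. CHAC1, ATF3 and the overlapping genes were named after their values were seen. List symbols were matched directly, 2 of them by an older symbol in a RefSeq table. Alternatives covered pseudocount, filter, scaling, moderation, libraries and replicate block.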

Additional observations from a re-analysis of the deposited data

How the results depend on the processing

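No member was called in the main fit or in any of the 21 other settings, in which the smallest adjusted p of a member was 0.102 (ASNS, glucose against BSA, library weights). Of 1419 refitted log2 fold changes of members, 1411 moved by less than 1 SD between replicates, and the 8 that moved further were those of ASNS without BSA 3, SHMT2 without AGEs 1 and ATF4 with quantile normalization. That count is no measure of stability. Several settings, and fits without a library of a group not compared, leave the fold changes as they were. Leaving out 1 of 3 libraries also moves a group mean by less than that group's SD. For glucose against BSA 8 of 10 members stayed above 0 in each setting that held all 10, except without glucose 3 (9 of 10), while with a mean FPKM of at least 5 ASNS, PSPH and SESN2 were not tested and 7 of 7 were above 0. With 1 library left out, signs of members changed in 6 of 12 fits for AGEs against BSA, in 1 for glucose against BSA, in 4 for AGEs with glucose against BSA, in 6 for AGEs against glucose (up to 3 members in a fit), in 8 for the averaged glucose effect, in 2 for the averaged AGEs effect and in 3 for the interaction. In a comparison of 2 groups, only a fit without a library of those groups can change a sign. For AGEs against BSA and for AGEs against glucose, every such fit changed at least 1 sign. AGEs against glucose also had sign changes in 2 of the 9 other settings.
Counts over all genes moved more, and the cause was not tested. Library weights gave 10 calls for AGEs against BSA, 127 for glucose against BSA, 5 for AGEs with glucose against BSA, 15 for AGEs against glucose, 16 for the averaged glucose effect, 10 for the averaged AGEs effect and 14 for the interaction, against 3, 10, 1, 4, 4, 1 and 1 in the main fit. Fits of only the groups compared, in which fewer libraries set the spread, gave 7, 5 and 0 calls for AGEs, glucose and both against BSA. No filter gave 2 for the averaged AGEs effect and 3 for the interaction, a mean FPKM of at least 5 gave 3 and 2, TMM scaling gave 2 for the interaction, quantile normalization 7 for the averaged glucose effect, and no trend or robust step 0 for the averaged AGEs effect.
Same-numbered libraries of different groups had deviations correlated at -0.214 to 0.128, over 0.1 in 2 of 18 pairs, so the numbers were not taken to pair them. With the replicate block the calls were 2 for glucose against BSA, 2 for the averaged glucose effect and 0 for the averaged AGEs effect, and 0 members were called.
With 1 library left out the calls over all genes ran from 2 to 6 for AGEs against BSA, 3 to 16 for glucose against BSA, 1 to 3 for both against BSA, 4 to 8 for AGEs against glucose, 2 to 10 for the averaged glucose effect, 0 to 5 for the averaged AGEs effect and 0 to 4 for the interaction. Without AGEs 1 the counts were 6, 16, 2, 5, 10, 5 and 3 in that order. FPKM gives no depth, so counting error at low genes such as PSPH is unknown.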
